A study of Mus musculus with 33 samples.

Results

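The genes described here are the centrosome and microtubule nucleation genes, 45 of the 14862 gene rows in a table of read counts from single mouse heart cells. They were chosen by name, with no measured value in the rule itself. The rule took the 29 rows whose symbol is Cep followed by a number, leaving out Cep55, a protein of abscission. It added 16 further genes, all of which were in the table: Tubg1, Tubgcp2, Tubgcp3, Tubgcp4, Tubgcp5, Tubgcp6, Pcnt, Pcm1, Cdk5rap2, Nin, Akap9, Plk4, Sass6, Stil, Cntrob and Ofd1. The question was whether these genes are lower in P5 cardiomyocytes that still carry mitotic RNA.

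Ventricular cells were dissociated from transgenic mAG-hGem mice, whose geminin reporter with green fluorescence is known from the FUCCI system, on embryonic day 14.5 (E14.5) or on day 5 after birth (P5). Geminin is present from S phase until mitosis, so the fluorescence marks cells in those phases. Sorting gave 10 positive and 11 negative cells at E14.5 and 6 of each kind at P5, all from reporter mice, and the labels name no other allele or treatment. The labels call every cell a single cardiomyocyte and give a PCR for Tnnt2, the cardiac troponin T gene, as part of the ground for that name.

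Every sample is a single cell whose animal is not named, so each group counts as 1 sample here. No difference below has a replicate check and none was tested. Levels are counts per 1000000 counts (CPM), either in 1 cell or in the summed counts of a group. Intervals at 95% are exact Poisson intervals for levels and exact Clopper-Pearson intervals for ratios. They cover counting error only, and amplified reads are not independent molecules. The total per cell ran from 2.55 to 38.5 M counts, where M is 1000000, with a median of 12.8 M.

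The cell type was checked against markers before anything else. The summed CPM of 11 cardiomyocyte markers was 13556 to 36326 in E14.5 positive cells, 14789 to 37020.2 in E14.5 negative cells and 21259 to 104207 in 5 of the 6 P5 positive cells. The sixth P5 positive cell, L2P12, had 94.2 CPM of these markers and 13384 CPM of 6 endothelial markers. In the P5 negative cells the cardiomyocyte sum was only 0.345 to 3287 CPM. Of those cells, 5 had 9675 to 31987 CPM of endothelial markers, and L2N12 carried fibroblast and mural markers at 19199 CPM beside 136 CPM of endothelial ones. The E14.5 negative cell N10 held 46224 CPM of fibroblast and mural markers beside 21208 CPM of cardiomyocyte markers. The library labelled L2P12 and the libraries labelled P5 negative thus go against their label.

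A centrosome is a pair of centrioles within a pericentriolar material, where gamma-tubulin ring complexes start new microtubules. Centrioles are copied once per cell cycle under the kinase Plk4, and the pericentriolar material grows before mitosis so that spindle poles can form. Heart muscle cells are known for taking this system apart around birth: pericentriolar proteins such as pericentrin and Pcm1 move to the surface of the nucleus, and microtubules then start there.

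In single cells the summed level of the 45 genes was lower in every P5 positive cell than in every E14.5 positive cell. The sum ran from 1335 to 2158 CPM in E14.5 positive cells, with a median of 1628 CPM. In the P5 positive cells it was 1243 CPM in L1P5, 1138 in L2P12, 1125 in L2P8, 1053 in L2P7, 415 in L2P3 and 78.5 in L2P10. E14.5 negative cells had 512 to 1722 CPM (median 1142), and P5 negative cells had 2.72 to 1704 CPM (median 833). Both negative groups overlapped both positive groups. In each E14.5 positive cell, the 3 highest members made up 37.5 to 48.7% of the sum, and in P5 positive cells 38.1 to 90.5%. Without Pcm1, Cep57 and Akap9 the sum was 752 to 1822 CPM in E14.5 positive and 74.5 to 1051 CPM in P5 positive cells, and the groups overlapped.

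The number of centrosome genes present in a cell overlapped between the positive cells of both ages. At 10 CPM or more, E14.5 positive cells had 16 to 32 of the 45 genes (median 21.5), against 6 to 19 (median 13) in E14.5 negative cells. Among P5 positive cells L2P12 had 22 genes, L2P7 21, L2P8 19, L2P3 9, L1P5 8 and L2P10 only 2. P5 negative cells had 0 to 14 (median 10.5). Over all 14862 genes, the median share at 10 CPM or more was 33% and 30.2% in positive and negative cells of E14.5, and 28.4% in both groups of P5. After each cell was thinned to 8671357 counts, which left out 6 shallower cells with L1P5 among them, the medians were 21 and 13 genes at E14.5 and 18 and 13 genes at P5, positive cells first.

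**Figure D1:**
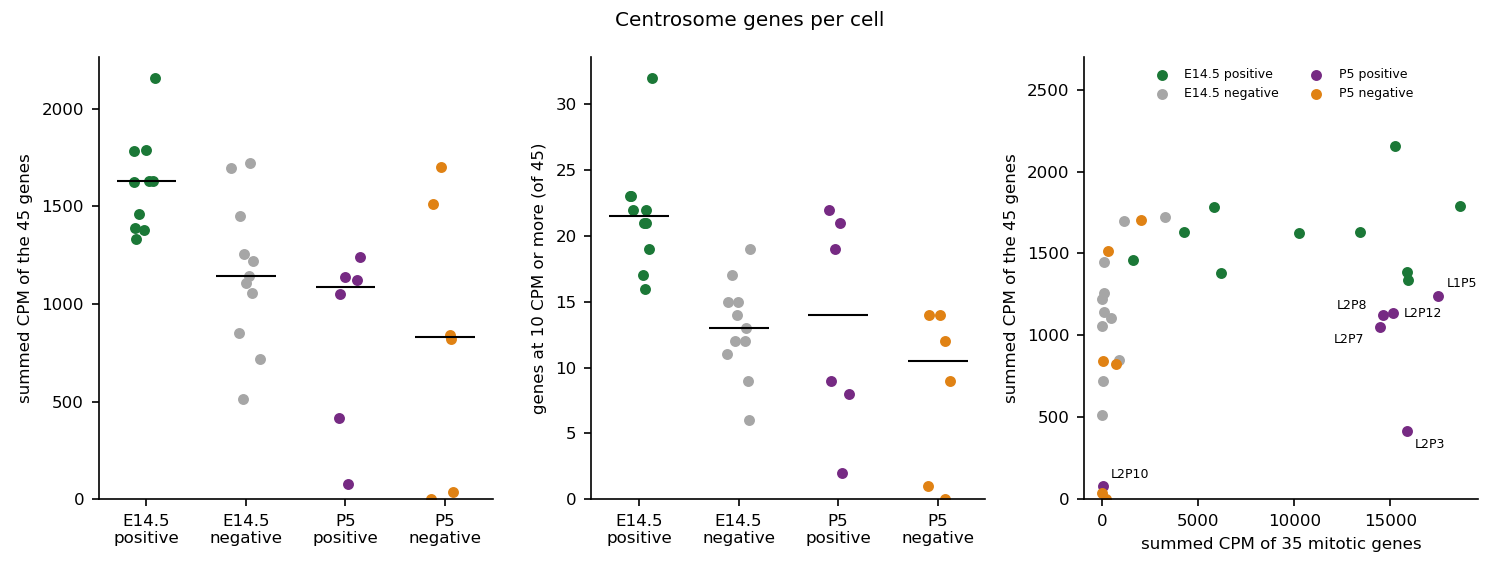
Centrosome genes per cell. Left, summed CPM of the 45 genes; middle, number of the 45 genes at 10 CPM or more; right, summed CPM of the 45 genes against that of 35 mitotic genes. Each point is 1 cell and each bar a group median, and the P5 positive cells lie at 1243 CPM or less while the E14.5 positive cells lie at 1335 CPM or more.

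Single cells weighed heavily on single genes. Of the 42 members with a read in P5 positive cells, 37 had over 50% of their counts in 1 cell, and in P5 negative cells 33 of 38 did. The same held for 12 of 44 members in the 10 E14.5 positive cells and for 26 of 42 in the 11 E14.5 negative cells. A group of 6 cells reaches such a share more easily than a group of 10. The same count was not made over all genes, so it does not set the members apart from other genes. The heat map of the genes shows this as isolated bright cells in otherwise dark rows at P5.

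**Figure D2:**
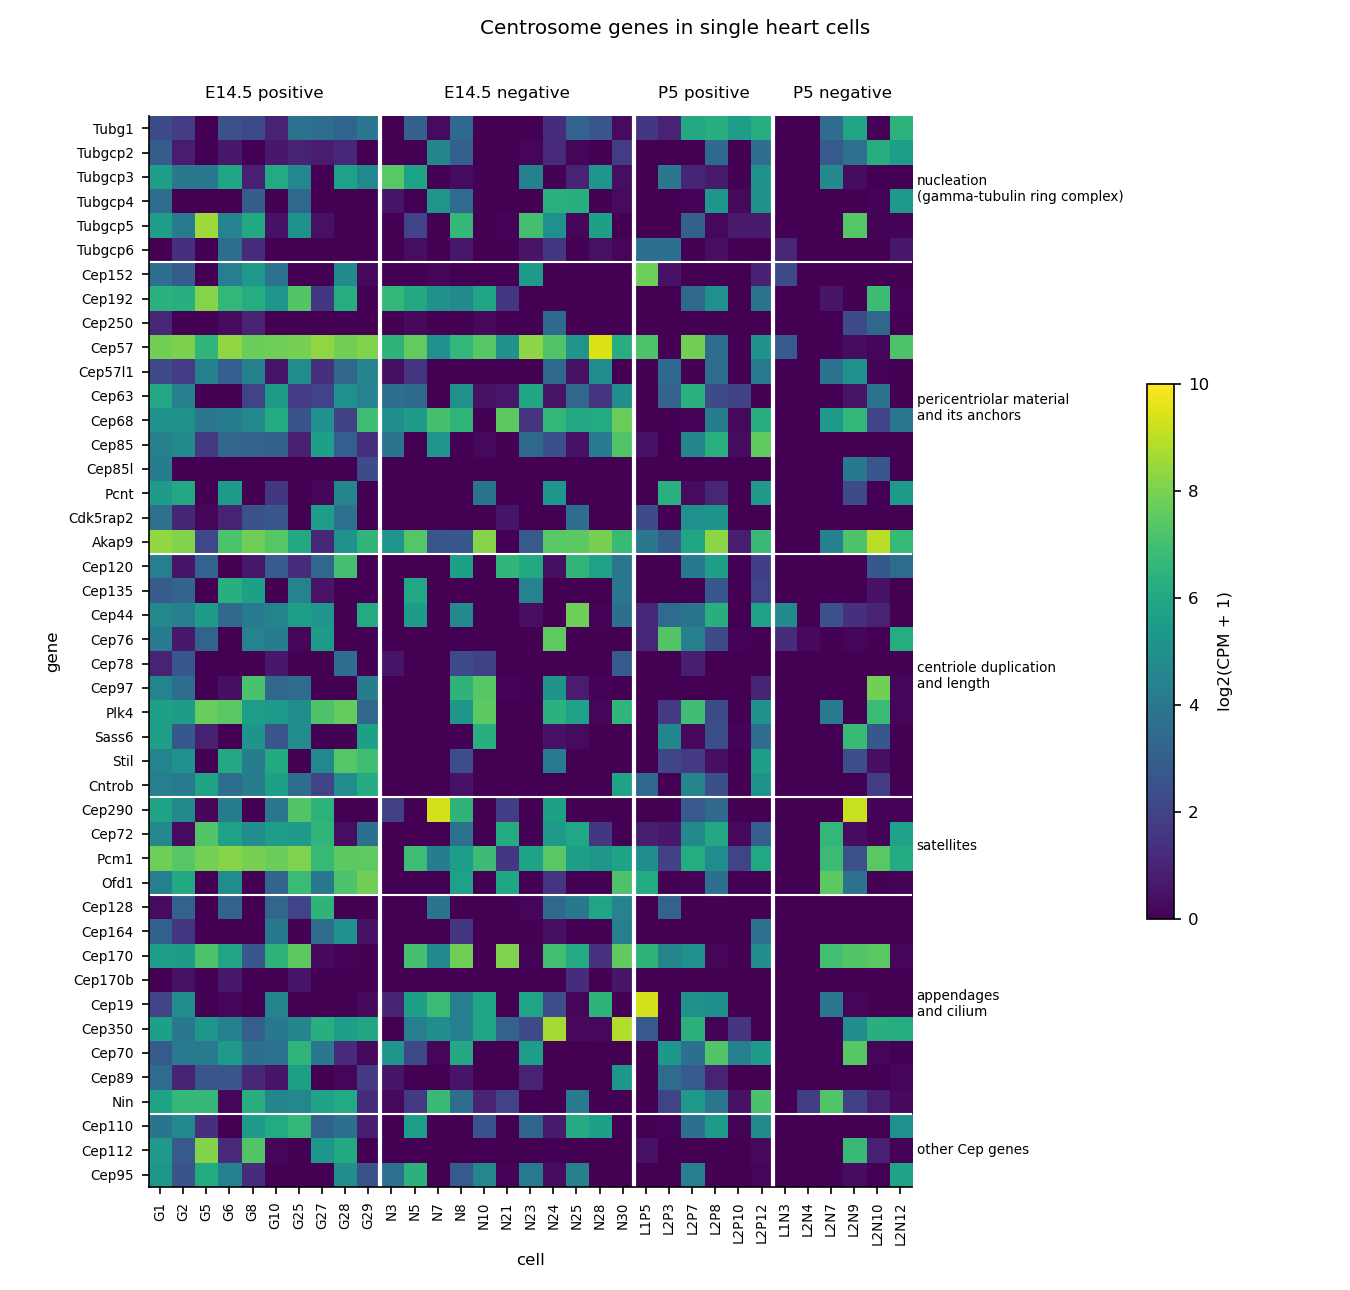
Level of 44 of the 45 genes (rows, grouped by role) in each of the 33 cells (columns, grouped by label) as log2(CPM + 1). Pcm1 and Cep57 are bright in all 10 E14.5 positive cells, while L2P10 and the P5 negative cells L1N3 and L2N4 are dark for nearly all genes.

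The first comparison set P5 positive against E14.5 positive cells, both sorted as cycling. Most of the 45 genes were lower at P5, and those of the gamma-tubulin ring complex stood mostly higher in summed counts. All 45 members passed the minimum of 10 counts over both groups. Of these, 23 were at least 2-fold lower (51.1%, against 40.9% of the 12262 genes that passed), 9 were at least 2-fold higher (20%, against 30.3%) and 13 lay within 2-fold. The median log2 ratio was -1.02 (order-statistic interval over genes -2.24 to -0.26), against -0.39 over all genes, 0.16 over 35 mitotic genes and -0.21 over 25 S phase genes. These medians have 0.5 count added on each side, and single ratios below have none. By the level in the median cell, 34 of 45 members were lower (75.6%, against 51.7% of all genes) and 6 were higher (13.3%, against 26.5%).

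The library labelled L2P12 and the P5 positive cell L2P10, which held 33.7 CPM of mitotic genes where the other 5 held 14446 to 17485, bear on these values. Without L2P12 the median was -1.70 for the members and -0.93 for all genes, with 25 members of 44 at least 2-fold lower (56.8%, against 49.0% of all genes) and 8 higher (18.2%, against 24.5%). Without L2P10 the members' median was -0.81. Scaling moved all genes together: the median of all genes was -0.23 with TMM factors and -0.00 with DESeq2 size factors, and that of the members -0.86 and -0.64. The members lay below all genes under each scaling.

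Nucleation genes are described first. Tubg1 encodes gamma-tubulin, the template subunit of new microtubules (chromosome 11, 101119904 to 101126423, GRCm38.p6). It ranged from 0 to 14.3 CPM in E14.5 positive cells, with a median of 4.34. At P5 it was 78.6 CPM in L2P8, 74.4 in L2P12, 64.4 in L2P7, 48.3 in L2P10, 1.96 in L1P5 and 0.919 in L2P3. Thus 4 P5 positive cells stood above every E14.5 positive cell and the other 2 stood within their range. The summed level was 56.5 CPM (55.0 to 58.1) against 8.15 CPM (7.71 to 8.61), a log2 ratio of 2.79 (2.71 to 2.88) or 6.94-fold, and it was 2.54 to 3.05 when any 1 cell was left out.

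The Tubgcp genes encode the other subunits of the ring complex, and they split. Tubgcp4 stood at 19.4 CPM at P5 and 2.12 CPM at E14.5, a log2 ratio of 3.19 (3.02 to 3.37), but only 2 of the 6 P5 positive cells, L2P8 at 37.6 and L2P12 at 34.5 CPM, reached 10 CPM. Tubgcp2 (log2 ratio 2.56) and Tubgcp6 (1.50) were also higher, at summed levels of only 5.49 and 2.33 CPM at P5, and Tubgcp6 was at -0.68 without L2P3. Tubgcp3 was lower, with a log2 ratio of -1.20, and -2.81 without L2P12, which held 75.3% of its P5 positive counts. Tubgcp5 was at 0 to 367 CPM in E14.5 positive cells (median 18.9) and at 0 to 7.43 CPM in P5 positive cells (median 0.393), a log2 ratio of -4.80 (-5.07 to -4.54), or -6.71 without L2P7. Counted as a group, 4 of the 6 nucleation genes were at least 2-fold higher (against 30.3% of all genes). The other 2 were at least 2-fold lower (against 40.9%).

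The pericentriolar material and its anchors lay nearest to all genes as a group. Of 12 genes, 7 lay within 2-fold, 4 were lower (against 40.9% of all genes) and 1 was higher (against 30.3%). The median log2 ratio was -0.45. The large scaffolds showed no common direction. Pcnt, the gene of pericentrin, had 23.6 CPM in P5 positive against 11.9 CPM in E14.5 positive cells (log2 ratio 0.99, 0.90 to 1.08), yet L2P3 at 80.7 CPM and L2P12 at 40.5 CPM were the only P5 positive cells above 1.12 CPM, and the ratio was 0.05 without L2P3. Cdk5rap2, which binds and activates ring complexes, had 14.7 against 14.9 CPM (log2 ratio -0.02, -0.12 to 0.08), and leaving out 1 cell gave -1.26 to 1.69, the latter without G27. Akap9, a scaffold of centrosome and Golgi, had 124 against 94.3 CPM (log2 ratio 0.39), and L2P8 alone held 71.0% of its P5 positive counts. Without L2P8 the Akap9 ratio was -0.90.

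Cep192, which recruits Plk4 and gamma-tubulin, was among the lower ones. It ran from 0 to 281 CPM in E14.5 positive cells (median 74.4), and 8 of 10 cells reached 10 CPM. At P5 it was 31.5 CPM in L2P8, 13.5 in L2P12, 10.1 in L2P7 and 0 in the other 3. The ranges overlapped, and the log2 ratio was -2.30 (-2.38 to -2.21), or -3.36 without L2P8. Cep57, a protein at the inner edge of the pericentriolar material, had 93.6 to 326 CPM in E14.5 positive cells (median 242), and 233, 147, 33.2 and 10.6 CPM in L2P7, L1P5, L2P12 and L2P8 with none in L2P3 and L2P10. Its log2 ratio was -2.45 (-2.50 to -2.41), and -3.86 without L2P7. Cep152, a partner of Cep192, had a ratio of -0.66, but 1 cell, L1P5 at 223 CPM, held 95.6% of the P5 positive counts, and without that cell the ratio was -5.11. Cep85 went the other way, at 72.2 against 17.5 CPM (log2 ratio 2.05, and 1.01 to 3.30 with 1 cell left out), with 187 CPM in L2P12 and 81.0 CPM in L2P8.

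Centriole duplication genes were lower in 6 of 10 cases (against 40.9% of all genes), higher in 1 (against 30.3%) and within 2-fold in 3. Their median log2 ratio was -1.50. Plk4, the kinase that starts a new centriole, was at 8.84 to 204 CPM in E14.5 positive cells (median 48.5), and all 10 cells had reads. P5 positive cells had 122 CPM in L2P7, 33.4 in L2P12, 3.81 in L2P8, 2.23 in L2P3 and 0 in L1P5 and L2P10. Thus 4 of the 6 stood below every E14.5 positive cell and 2 stood within their range. The log2 ratio was -1.98 (-2.04 to -1.92), or 3.95-fold lower, and it was -3.22 without L2P7.

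Stil, the partner that Plk4 phosphorylates, had 0 to 165 CPM in E14.5 positive cells (median 28.3), with 8 of 10 cells at 10 CPM or more. Among P5 positive cells only L2P12 reached 10 CPM, at 45.9, while L2P3 had 3.28, L2P7 2.24, L2P8 0.336 and the other 2 had 0. The log2 ratio was -2.27 (-2.36 to -2.18) with all cells and -5.55 without L2P12, the library with endothelial markers, which held 92.2% of the P5 positive counts. Sass6, the cartwheel protein at the core of a new centriole, had 7.77 against 15.8 CPM (log2 ratio -1.02, -1.14 to -0.90), and its highest P5 positive cell was L2P3 at 23 CPM. Cep97, which caps growing centrioles, had 0 to 138 CPM in E14.5 positive cells, and its only P5 positive reads were 1.07 CPM in L2P12 (log2 ratio -6.02, -6.67 to -5.45, and -11.20 without that cell). Cep76, known as a limit on reduplication, was higher (log2 ratio 1.02), with 158 CPM in L2P3, and its ratio was -1.69 without that cell.

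Satellite genes gave the lowest median of the role groups with more than 3 genes, at -3.02 over 4 genes. Of these, 3 were at least 2-fold lower, against 40.9% of all genes. Satellites are cytoplasmic granules that carry proteins to the centrosome. Pcm1, their scaffold (chromosome 8, 41239484 to 41334088, GRCm38.p6), was at 109.8 to 288 CPM in E14.5 positive cells, with a median of 214. At P5 it was 72.9 CPM in L2P7, 61.4 in L2P12, 30.6 in L1P5, 28.4 in L2P8, 3.18 in L2P10 and 2.82 in L2P3. All P5 positive cells thus stood below all E14.5 positive cells, and Pcm1 was the only member of which this was true (2.22% of 45, against 0.718% of all genes lower in every cell). The summed level was 34.9 CPM (33.7 to 36.1) against 191 CPM (189 to 193), a log2 ratio of -2.45 (-2.50 to -2.40) or 5.47-fold lower. Leaving out any 1 cell gave -2.86 to -2.21.

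Ofd1, a satellite and distal centriole protein, ranged from 0 to 224 CPM in E14.5 positive cells (median 23.7). At P5 L1P5 had 69.2 CPM, L2P8 11.7, L2P7 0.0798 and the other 3 had 0, so the groups overlapped. The log2 ratio was -3.79 (-3.92 to -3.66). Cep290, a gatekeeper of the cilium base, had 0 to 161 CPM in E14.5 positive cells (median 16.4) and 10.1 and 5.99 CPM in L2P8 and L2P7 with none in the other 4 (log2 ratio -3.58, -3.74 to -3.43, and -5.28 without L2P8). Cep72, a binding partner of Pcm1, stood at 24.3 against 48.4 CPM.

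Genes of the appendages and the cilium were lower in 6 of 10 cases (against 40.9% of all genes). They were higher in 3 (against 30.3%) and within 2-fold in 1, with a median log2 ratio of -1.24. Nin, the gene of ninein, which anchors microtubules at the mother centriole, had 44.4 against 48.0 CPM (log2 ratio -0.11, -0.17 to -0.06). Of the P5 positive counts of Nin, 76.7% came from L2P12 at 139 CPM, and without that cell the ratio was -1.81. Cep128, a protein of the subdistal appendages, had 92.5% of its E14.5 positive counts in G27 and 99.2% of its P5 positive counts in L2P3 (log2 ratio -4.18, but -0.84 without G27 and -10.24 without L2P3). Cep19, a ciliary protein, had the highest ratio of the members above 10 CPM, at 30.9 against 3.10 CPM (log2 ratio 3.32, 3.18 to 3.46). L1P5 stood at 631 CPM, L2P7 at 34.3, L2P8 at 30.2 and the other 3 at 0, and without L1P5 the ratio was 2.16. Cep70, which binds gamma-tubulin, reached 10 CPM in 5 of 6 P5 positive cells (11.6 to 154 CPM, with none in L1P5), against 0.147 to 93.2 CPM in E14.5 positive cells (log2 ratio 1.73, 1.67 to 1.79, and 0.60 without L2P8).

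Among the remaining Cep genes, Cep112 had the lowest ratio of the members with reads in both groups. Its E14.5 positive cells ran from 0 to 272 CPM (median 22.2), with 5 of 10 at 10 CPM or more. The P5 positive cells had 0.393 CPM in L1P5, 0.178 in L2P12 and 0 in the other 4 (log2 ratio -9.90, -11.52 to -8.67). Where a member had no read in a group, 3 counts in that group as a whole served as the floor of the fold. On it Cep85l was at least 46.4-fold lower in P5 positive cells, Cep250 at least 5.25-fold lower and Cep170b at least 3.50-fold lower. Their E14.5 positive levels were only 1.51, 0.171 and 0.114 CPM. Cep85l had reads in 2 E14.5 positive cells, with 66.5% of the counts in G1. Cep250 and Cep170b had 27 and 18 counts, each in 4 cells. As log2 ratios these folds are -5.54, -2.39 and -1.81. The exact intervals reached weaker values, -5.23, -1.99 and -1.36.

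**Figure D3:**
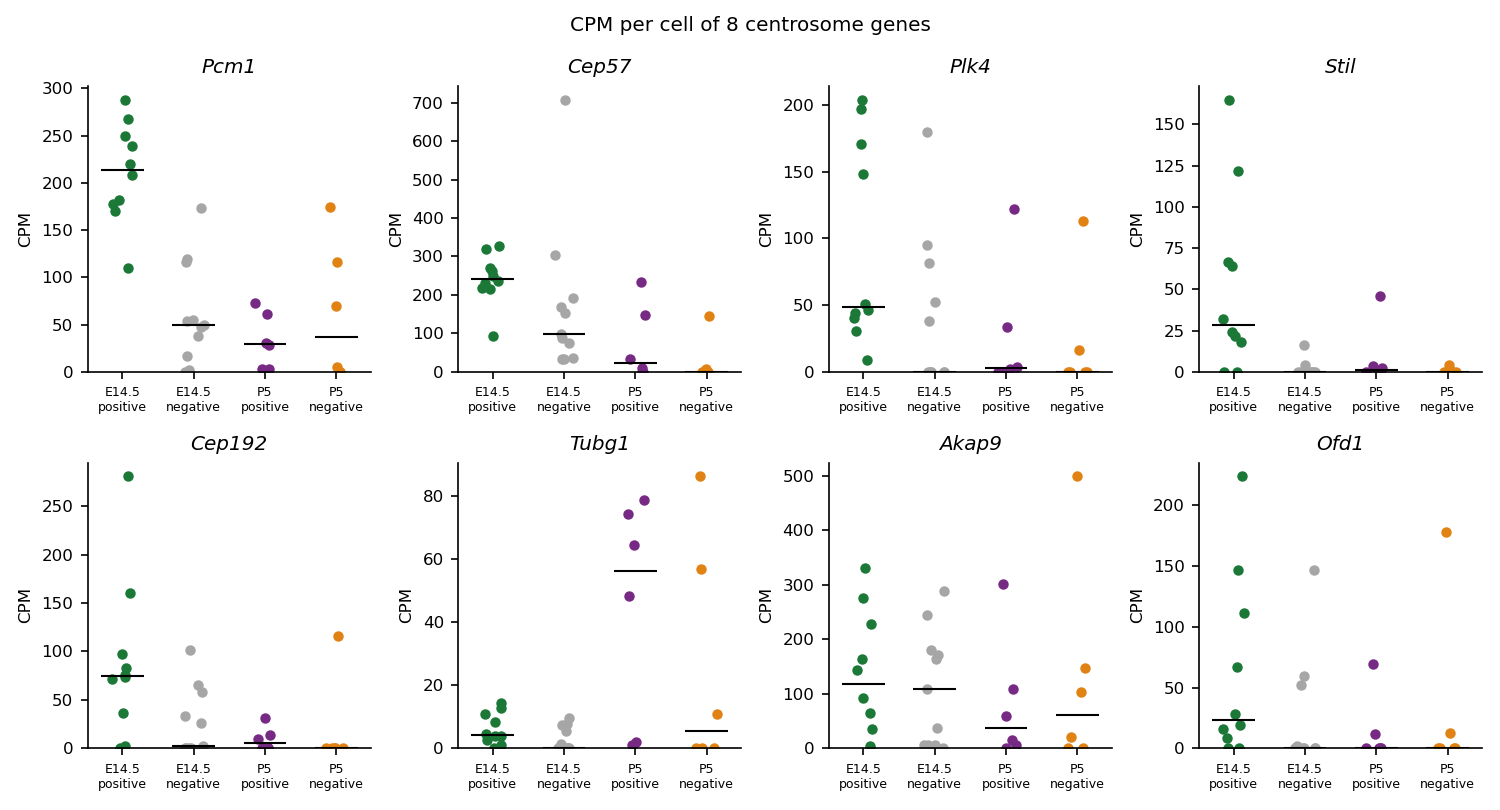
CPM per cell of 8 centrosome genes. Points are cells, bars are group medians, and each panel has its own linear axis. Pcm1 separates P5 positive (at most 72.9 CPM) from E14.5 positive cells (at least 109.8 CPM), while Tubg1 has 4 P5 positive cells above the highest E14.5 positive cell.

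The question set for these genes concerns P5 cardiomyocytes that still carry mitotic RNA. Cells of both ages were therefore taken that had at least 10000 CPM of cardiomyocyte markers and at least 10000 CPM of 35 mitotic genes, a list that holds none of the 45. This kept the P5 positive cells L1P5, L2P3, L2P7 and L2P8 and 6 of the 10 E14.5 positive cells, with mitotic sums of 14446 to 17485 and 10265 to 18631 CPM. In these cells the members were again mostly lower at P5. The median log2 ratio of 44 members was -1.46, against -0.55 over all genes and 0.09 over the mitotic genes. Of the 44, 24 were at least 2-fold lower (54.5%, against 43.2% of all genes) and 10 at least 2-fold higher (22.7%, against 29%). A second list holds centrosome genes outside the rule and is described below. In the same cells its median over 41 genes was -0.28, above that of all genes. No interval was computed for the medians in these cells. Of the 41, 16 were at least 2-fold lower, a smaller share than the 43.2% of all genes, and 7 were higher.

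Leaving aside the 3 remaining Cep genes, the role groups kept their order in those cells. Satellite genes had a median log2 ratio of -2.79, duplication genes -1.72, appendage and cilium genes -1.42, pericentriolar genes -0.35 and nucleation genes 2.70. Pcm1 was at -2.53, Plk4 at -1.94, Cep192 at -1.98 and Stil at -5.35, while Tubg1 was at 2.41. Ofd1 was at -3.33, Cep290 at -3.04, Nin at -1.58 and Sass6 at -0.97. Cdk5rap2 was at 0.41, Cep152 at 0.08 and Akap9 at 1.50, with 302 CPM of Akap9 in L2P8. The ranges of Cep192 overlapped, at 0 to 31.5 CPM at P5 and 0 to 281 CPM at E14.5. Those of Stil (0 to 3.28 and 0 to 165 CPM) and Plk4 (0 to 122 and 8.84 to 204 CPM) did too. The higher nucleation genes rested on few of these P5 cells. Tubg1 was at 78.6 CPM in L2P8 and 64.4 in L2P7, but at most 1.96 CPM in L1P5 and L2P3. Tubgcp4 had 37.6 CPM in L2P8 and at most 0.0798 in the others, and Tubgcp2 had reads in L2P8 only, at 9.79 CPM. Tubgcp6 had 11.8 CPM in L1P5 and 11.6 in L2P3, and at most 0.336 in the others. The ratio of Pcnt, 2.33, rested on L2P3 at 80.7 CPM, since the other 3 P5 cells had at most 1.12 CPM, and it was 0.90 against all 10 E14.5 positive cells. The summed level of the 45 genes was 415 to 1243 CPM in the 4 P5 cells and 1335 to 2158 CPM in the 6 E14.5 cells. Without Pcm1, Cep57 and Akap9 the sum was 406 to 1051 CPM at P5 and 843 to 1822 CPM at E14.5, and the ranges overlapped. The number of members at 10 CPM or more was 8 to 21 at P5 and 16 to 23 at E14.5, which overlapped. Over all genes the share at 10 CPM or more was 17.4 to 34.2% in these P5 cells and 27.4 to 35.3% in these E14.5 cells. L1P5, the shallowest cell at 2.55 M counts, gave the lowest P5 value of both, 8 members and 17.4% of all genes. When the 4 P5 cells were set against all 10 E14.5 positive cells, a choice made after seeing the data, the median was -1.42 for the members and -0.96 for all genes, with 24 of 44 at least 2-fold lower (54.5%, against 49.4% of all genes) and 8 higher (18.2%, against 24.2%).

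**Figure D4:**
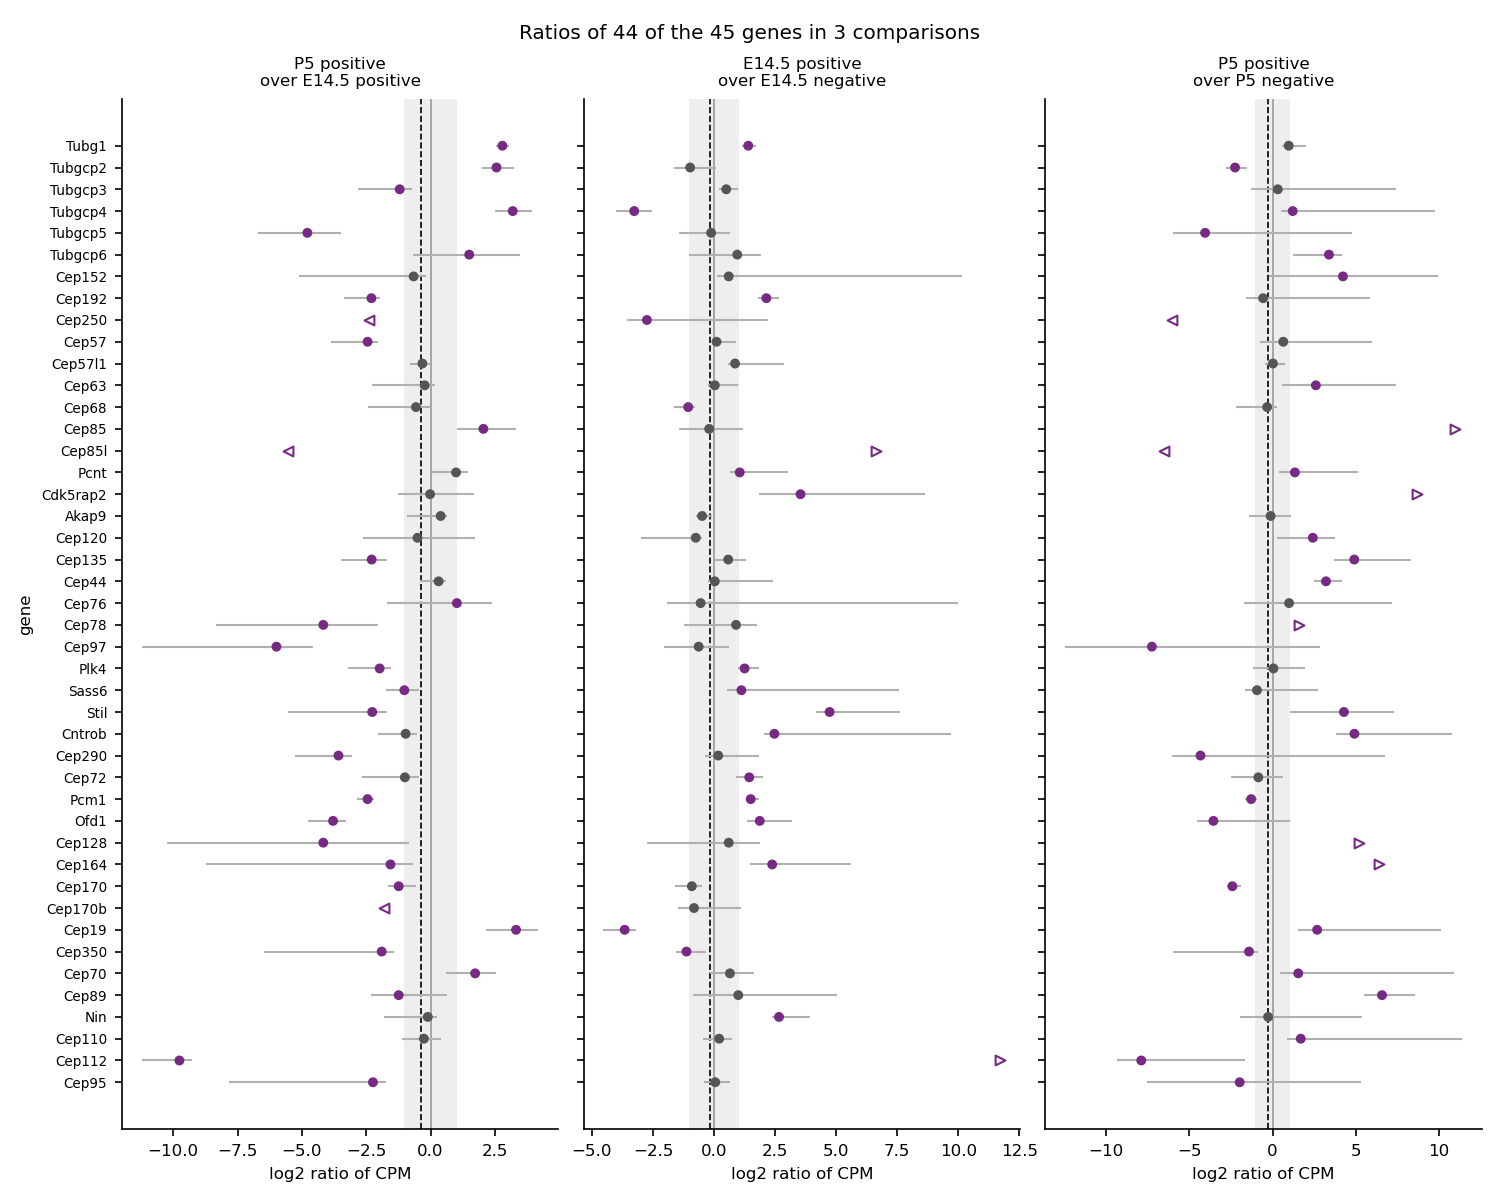
Log2 ratio of summed CPM for 44 of the 45 genes in the 3 comparisons, ordered by role. Points have 0.5 count added on each side, purple marks at least 2-fold, and grey lines span the values with each cell left out in turn. Open triangles are bounds for genes with no read in 1 group, the grey band is within 2-fold, and the dashed line is the median of all genes, which lies at -0.39, -0.16 and -0.29 from left to right.

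The second comparison set E14.5 positive against E14.5 negative cells, which asks how the genes differ with the reporter at 1 age. It shares the E14.5 positive cells with the first comparison, so a gene high in those cells is high in both. Here the centrosome genes were mostly higher in the positive cells. Of the 44 members that passed the minimum, 15 were at least 2-fold higher (34.1%, against 22.4% of 12633 genes) and 5 at least 2-fold lower (11.4%, against 29%). The median log2 ratio was 0.59 (0.03 to 0.99), against -0.16 over all genes and 4.53 over the mitotic genes. No member was higher in every E14.5 positive cell than in every E14.5 negative cell, against 0.198% of all genes.

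Among the role groups with more than 3 genes, satellite genes had the highest median log2 ratio, 1.47. Of the 4 satellite genes, 3 were at least 2-fold higher, against 22.4% of all genes. Duplication genes followed at 0.74, with 4 of 10 higher and none lower (against 22.4% and 29% of all genes). Stil was at 58.8 CPM (57.6 to 60.0) in positive and 2.22 CPM (2.02 to 2.44) in negative cells, a log2 ratio of 4.73 (4.59 to 4.87), or 4.16 to 7.62 with 1 cell left out. In negative cells only N24, at 16.4 CPM, reached 10 CPM, and 9 of the 11 had no read. Cntrob, a daughter centriole protein, reached 10 CPM in 9 of 10 positive cells (3.09 to 69.8 CPM, median 18), but in negative cells only in N30, at 52.9 CPM (log2 ratio 2.47, 2.37 to 2.58, and 9.69 without N30). Plk4 ran from 0 to 179.6 CPM in negative cells with a median of 0.0872 and reached 10 CPM in 5 of 11 (log2 ratio 1.25). Sass6 had a ratio of 1.12, and N10 held 99% of its counts in negative cells, without which the ratio was 7.59. Within title numbers 1 to 10, described below, the ratio of Sass6 was -0.55.

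Some pericentriolar, satellite and appendage genes were higher as well. Cdk5rap2 was at 0 to 47.2 CPM in positive cells (median 2.84), with 76.9% of the counts in G27, and at 0 to 10.9 CPM in negative cells, where N25 held 97.6%. Its log2 ratio was 3.54 (3.35 to 3.73), and 1.83 without G27 and 8.63 without N25. Nin ran from 0.115 to 99.4 CPM in positive cells (median 53.9) and from 0 to 108 CPM in negative cells (median 1.01), with a log2 ratio of 2.66 (2.58 to 2.74), or 3.93 without N7. Cep192 had 67.9 against 15.5 CPM (log2 ratio 2.14) and Ofd1 73.3 against 20 CPM (1.87, and 3.19 without N30). Pcm1 had 0 to 173 CPM in negative cells (median 49.5), below the positive median of 214 in all 11, and a log2 ratio of 1.50 (1.47 to 1.53). Tubg1 (1.40) and Pcnt (1.05, and 3.01 without N24) stood at summed levels of 8.15 and 11.9 CPM in positive cells. Their direction turned within runs of title numbers, Tubg1 to -0.44 within 1 to 10 and Pcnt to -0.20 within 21 to 30.

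A few members stood higher in the negative cells. Cep19 had 39.1 CPM in negative against 3.10 CPM in positive cells (log2 ratio -3.66, -3.79 to -3.53), and 6 of 11 negative cells reached 10 CPM. Tubgcp4 had 20.5 against 2.12 CPM (log2 ratio -3.28). Cep350, a partner of the appendage protein network, and Cep68, a linker protein, had ratios of -1.13 and -1.06, and that of Cep350 was -0.34 without N24. Cep170, a subdistal appendage protein, and Cep120, which acts in centriole elongation, were at -0.91 and -0.75, and at -1.60 without G25 and -2.98 without G28. Cep57 (0.10), Akap9 (-0.49), Cep152 (0.60) and Cep290 (0.17) lay within 2-fold, but Cep152 was at 10.14 without N23, and Cep290 at 1.84 without N7, which held 69.8% of its negative counts. Cep112 had 51.7 CPM in positive cells and no read in the 11 negative cells, which is at least 3373-fold on the same floor. As a log2 ratio this fold is 11.72, and the exact interval reached a weaker value, 11.42.

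The title numbers of the E14.5 cells fall into 2 runs, 1 to 10 and 21 to 30, whose meaning the labels do not give. Within numbers 1 to 10 the members' median was 0.99 (0.02 over all genes), with 19 members of 43 at least 2-fold higher (44.2%, against 30.6% of all genes) and 6 lower (against 25.5%). Within 21 to 30 it was 0.30 (-0.31 over all genes), with 16 of 44 higher (36.4%, against 23%) and 10 lower (22.7%, against 36.6%).

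Promoter sequences were read for Stil and Cdk5rap2, since among the 13 genes described in each comparison their log2 ratio between positive and negative cells at E14.5 was highest. Each window runs from 250 bases before to 50 bases after the gene start, on RefSeq GRCm38.p6, written 5′ to 3′ on the strand of the gene. The Stil window is chr4:114999868-115000167 on the plus strand and the Cdk5rap2 window chr4:70410386-70410685 on the minus strand. Capitals mark matches on either strand to CCAAT, to the CHR words TTTGAA or TTCGAA, or to the E2F words TTTCCCGC, TTTCGCGC, TTTGCCGC or TTTGGCGC, motifs known from cell cycle promoters.
Stil: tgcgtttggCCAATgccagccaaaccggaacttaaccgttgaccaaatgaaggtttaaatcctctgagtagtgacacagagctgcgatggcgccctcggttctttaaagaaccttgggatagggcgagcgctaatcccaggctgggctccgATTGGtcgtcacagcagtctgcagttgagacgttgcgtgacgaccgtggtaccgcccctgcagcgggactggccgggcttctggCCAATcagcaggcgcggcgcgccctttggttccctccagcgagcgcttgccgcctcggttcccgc
Cdk5rap2: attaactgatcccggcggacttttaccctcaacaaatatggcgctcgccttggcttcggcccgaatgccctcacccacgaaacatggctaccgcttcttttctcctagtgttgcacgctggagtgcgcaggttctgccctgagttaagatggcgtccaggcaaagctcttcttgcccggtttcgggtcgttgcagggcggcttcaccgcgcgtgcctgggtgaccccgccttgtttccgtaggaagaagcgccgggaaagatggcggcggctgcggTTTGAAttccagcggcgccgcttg
The Stil window held 3 CCAAT boxes, starting 241, 99 and 15 bases before the gene start, and no CHR or E2F word. The Cdk5rap2 window held 1 CHR word, 27 bases after the start. RefSeq had 42 windows for 35 of the 45 members, some with more than 1 start. Of the 42, 17 held CCAAT (40.5%, against 37.4% of all 32851 windows), 11 a CHR word (26.2%, against 19.2%) and 3, those of Cep128, Cep63 and Tubgcp3, an E2F word (7.14%, against 2.26%). A match describes these letters only. Members without a window included Cep110, Cep120, Cep192, Cep350, Cep76, Tubg1, Tubgcp2, Pcm1 and Cntrob.

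The third comparison set P5 positive against P5 negative cells. Since the P5 negative libraries carry markers of other cell types, reporter state and cell type cannot be told apart in it. It shares the P5 positive cells with the first comparison. Of 44 members, 20 stood higher by at least 2-fold in the positive cells (45.5%, against 34.2% of 11567 genes) and 12 at least 2-fold lower (27.3%, against 39.4%). The median log2 ratio was 0.80 (-0.33 to 2.42), against -0.29 over all genes and 4.96 over the mitotic genes. With a minimum of 1000 counts it was 0.03 over 34 members, against -0.33 over all genes.

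Levels in the P5 negative cells came mostly from 1 cell per gene. Cep290 had 572 CPM in L2N9, Ofd1 178 CPM and Nin 154 CPM in L2N7, and Akap9 499 CPM, Cep97 233 CPM, Cep192 116 CPM and Plk4 113 CPM in L2N10. Pcm1 had 174 CPM in L2N10, 116 in L2N7, 69.9 in L2N12, 4.63 in L2N9 and 0 in L1N3 and L2N4, a range that overlapped the P5 positive cells (log2 ratio -1.29, -1.35 to -1.22). Tubg1 had 86.3 CPM in L2N12, 57.0 in L2N9 and 11 in L2N7 (log2 ratio 0.97, 0.90 to 1.04), so levels like those of the P5 positive cells also occurred in cells low in cardiomyocyte markers, at 50 to 348 CPM summed. Plk4 stood at 26.3 against 25.4 CPM, a log2 ratio of 0.05 (-0.03 to 0.14), but leaving out 1 cell gave -1.18 to 1.95, the latter without L2N10. Akap9 (-0.12), Nin (-0.27), Cep192 (-0.57) and Sass6 (-0.94) were within 2-fold too, and past it without L2P8 (-1.41), L2N7 (5.35), L2N10 (5.84) and L2N9 (2.74).

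The lowest ratios among members with reads in both groups were those of Cep112 (-8.03), Cep97 (-7.29), Cep290 (-4.34), Tubgcp5 (-4.07), Ofd1 (-3.56) and Cep170 (-2.42). Each but Cep170 rested on 1 P5 negative cell: without it Cep112 was at -1.65, Cep97 at 2.86, Cep290 at 6.75, Tubgcp5 at 4.75 and Ofd1 at 1.04. Cep170 kept its direction, at -2.77 to -1.93 with 1 cell left out.

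The highest ratios among members with at least 10 CPM in P5 positive cells were those of Cep85, Cdk5rap2, Cntrob, Stil, Cep44 (3.21), a centriole protein, and Cep19 (2.68). No P5 negative cell had a read of Cep85 or Cdk5rap2. On the same floor Cep85 was at least 1996-fold and Cdk5rap2 at least 408-fold higher in the positive cells. As log2 ratios these folds are 10.96 and 8.67, and the exact intervals reached weaker values, 10.66 and 8.37. Stil was at 12.2 against 0.615 CPM (log2 ratio 4.31) and Cntrob at 13.0 against 0.422 CPM (4.94). For Cep85, Stil and Cntrob, L2P12 held 63.2, 92.2 and 64.4% of the P5 positive counts, and without L2P12 the ratio of Stil was 1.02. Pcnt was at 1.34 (0.40 to 5.13 with 1 cell left out) and Cep152 at 4.25, or -0.22 without L1P5.

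The second list, of 45 centrosome genes outside the rule, was examined in the same way, and 44 of them were in the table. In P5 positive over E14.5 positive cells its median log2 ratio was -0.21 over 42 genes (order-statistic interval over genes -1.31 to 0.14). That lay above the -0.39 of all genes, where the median of the 45 genes, -1.02, lay below it. The interval of the second list held -0.39, however, and overlapped that of the 45 genes, -2.24 to -0.26. The mean log2 ratio was -1.34 for the second list and -1.23 for the 45 genes, so the 2 lists were not clearly apart. Of the 42, 16 were at least 2-fold lower, a smaller share than the 40.9% of all genes. Another 7 were higher, also a smaller share than the 30.3% of all genes. In E14.5 positive over negative cells the median of this list was 0.89, against -0.16 over all genes. There 20 of 42 were higher and 4 lower, where all genes had 22.4% and 29%. Among other nucleation genes, Mzt1, a small ring complex subunit, had 57.6 CPM in P5 positive against 170 CPM in E14.5 positive cells (log2 ratio -1.56), and Nedd1, which brings the complex to the centrosome, had 57.4 against 55.0 CPM (0.06). The augmin subunits, which branch microtubules within the spindle, differed among themselves: Haus3 was at -2.72 and Haus6 at -8.95, while Haus1 was at 2.31. Haus2, Haus4, Haus5, Haus7 and Haus8 lay within 2-fold, at -0.20 to 0.84. Cenpj, which sets centriole length, was at 8.66 against 50 CPM (-2.53), and Poc5, a protein of the centriole lumen, at 72.7 against 65.7 CPM (0.14).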

How the data were processed

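RNA of 33 single cells was sequenced. The authors' deposited table holds raw read counts, whole numbers per gene and cell, and the library kit was TruSeq, per the labels. CASAVA 1.8.2, STAR 2.4.0j and HTSeq 0.6.1p1 and the build mm10 are named in the submitters' processing notes. The annotation, filters, strand setting and any molecular identifiers are not given in the sources used here, so overlapping or antisense genes cannot be told apart.

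CPM were computed per cell, and per group from summed counts and summed totals. Genes needed 10 counts over both groups for a median or a fold count. The members and all gene lists were chosen with earlier results of these data known. Genes named by rule were 13 fixed names and, per comparison, the 6 highest and 6 lowest members with at least 10 CPM in the higher group; the others named were picked after their values were seen. Of the marker lists, 6 of 7 fibroblast and mural, 2 of 6 red blood cell and 2 of 5 immune genes were in the table, and 3 red blood cell genes were added after seeing the data. Summed red blood cell markers reached at most 983 CPM (2459 CPM for the added genes), both in P5 negative cells, and immune markers at most 379 CPM, in N21. The most alike pair of cells had a Pearson r of 0.867, which is no sign of a repeated library.

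Python 3.11.15, numpy 2.4.6, pandas 2.3.3 and scipy 1.17.1 were used. Under R 4.3.3, edgeR 4.0.16 and DESeq2 1.42.0 gave scaling factors only, as alternatives. Other alternatives changed the weight of cells, the filter, the added count or the cells. Scripts were tested on simulated data. Gene names matched RefSeq by symbol for 44 members and by synonym for Cep110. The single values of 1 member are not reported here, and it is counted in the sums, counts and medians.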

Additional observations from a re-analysis of the deposited data

Results flagged for a closer look

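Within each group but E14.5 negative, the gap of the highest or lowest cell to its nearest neighbour was set against Dixon's 95% limit. This was done for 15 measures, where possible, in 44 combinations of measure and group. The limits used did not extend to a group of 11 cells, so no E14.5 negative cell was examined. Chance alone passes about 1 in 20, and 18 combinations passed, several of them through the same cell. Skewed levels with many zeros pass more easily than the limit assumes.

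In E14.5 positive cells, G1 stood apart with 32 centrosome genes at 10 CPM or more, where the next cell had 23, and G27 with 47.2 CPM of Cdk5rap2, where the next had 12.7. In P5 positive cells, L1P5 stood apart with 223 CPM of Cep152 and 69.2 CPM of Ofd1, and L2P8 with 302 CPM of Akap9. L2P7 stood apart with 122 CPM of Plk4, and the library with endothelial markers, L2P12, with 45.9 CPM of Stil and 139 CPM of Nin.

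In P5 negative cells, L2N10 stood apart with 499 CPM of Akap9, 116 CPM of Cep192 and 113 CPM of Plk4. L2N9 stood apart with 572 CPM of Cep290, 105 CPM of Sass6 and 4.18 CPM of Stil, and L2N7 with 154 CPM of Nin and 178 CPM of Ofd1. L2N12 stood apart with 43.1 CPM of Pcnt, and L1N3 with 3.96 CPM of Cep152, which no other P5 negative cell had. The causes were not tested.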

How the results depend on the processing

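The direction of the members' median held under every alternative run in each comparison. With 1 cell left out, the median ran from -1.70 (without L2P12) to -0.81 (without L2P10) in P5 positive over E14.5 positive, with 21 to 25 members lower and 7 to 10 higher. In E14.5 positive over negative it ran from 0.32 (without G25) to 0.83 (without G27), with 14 to 19 higher and 3 (without N30) to 8 (without G27, N23 or N28) lower. In P5 positive over negative it ran from 0.29 (without L2P3) to 2.13 (without L2N12), with 11 to 16 lower and 17 to 24 higher. Title numbers 21 to 30 gave 10 lower members at E14.5 (22.7%, against 36.6% of all genes). A minimum of 1000 counts gave 12 higher members of 34 at P5 (35.3%, against 30.3% of all genes). Without that minimum the shares were 45.5% and 34.2%, so the members then lay nearer to all genes. The genes past 2-fold that changed sign are given here, and those within 2-fold are not. In P5 positive over E14.5 positive, Cep76 ran from -1.69 without L2P3 to 2.40, Tubgcp6 was -0.68 without L2P3 and Cep89 0.62 without G25. At E14.5, Cep250 was 2.20 without N24, Tubg1 was -0.44 and Sass6 -0.55 within title numbers 1 to 10, and Pcnt -0.20 within 21 to 30. At P5, Cep152 ran from -0.22 without L1P5 to 9.93, Ofd1 from -4.52 to 1.04 without L2N7, Cep290 from -6.04 to 6.75 and Tubgcp5 from -5.98 to 4.75, both without L2N9, and Cep97 from -12.47 to 2.86 without L2N10, while Cep95 was 5.33 without L2N12. The cause was not tested. Leaving out cells low in cardiomyocyte markers could not be run at P5 against P5 negative, where no cell would remain. No paired analysis was possible because each group is 1 sample and replicate numbers only name cells. Depth limits L1P5 most, at 2.55 M counts.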
